A study of Mus musculus and Homo sapiens with 32 samples.

Results

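The Krüppel-like factor (Klf) genes of mouse kidney were followed through ureteral obstruction, the Pcmt1 tKO genotype and TGF-β receptor inhibition. They were chosen by name: Klf2, Klf3, Klf4, Klf5, Klf6, Klf7, Klf9, Klf10, Klf13 and Klf15, 10 of the 57180 genes in the deposited table of the obstruction experiment. Each occurs once in that table as a protein-coding gene, and all 10 were among the 19256 genes that passed the filter on low counts.

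Klf proteins are transcription factors whose zinc fingers bind GC-rich and CACCC elements of DNA, as do those of their closest relatives, the Sp proteins. Some members mainly activate transcription, and others recruit corepressors such as CtBP or Sin3A. In kidney, Klf15 is known from podocytes, fibroblasts and metabolically active tissue, Klf2 and Klf4 from endothelium, Klf5 from collecting duct and urothelium, and Klf6 from the early response of injured cells.

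The study examined RNA of kidneys from mice of the genotypes Pcmt1 tKO and Pcmt1 fl/fl by bulk mRNA sequencing. Pcmt1 encodes an enzyme that repairs isoaspartyl residues in proteins. Kidneys of each genotype were taken after unilateral ureteral obstruction (UUO, a surgical model of renal fibrosis) with LY2109761 (LY), after UUO with DMSO, and after sham surgery with DMSO. LY2109761 inhibits the TGF-β receptor kinases, and DMSO is its solvent. Each of the 6 groups (tKO UUO+LY, fl/fl UUO+LY, tKO UUO, fl/fl UUO, tKO sham, fl/fl sham) held 3 libraries. The labels used here do not spell out tKO, do not give the promoter behind the deletion, the strain, the age, the dose or the time after surgery, and do not say that replicates were separate animals. The p-values therefore speak only to the variation among these libraries, part or all of which may be technical.

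Libraries held 13015669 to 19565376 counts. Levels are given as CPM, the count scaled to library size after TMM normalization. Pcmt1 lay at 22.7 to 27.9 CPM in 8 of the 9 tKO libraries, against 25.7 to 48.9 CPM in the 9 fl/fl libraries. It stood at 49.3 CPM in the library labelled tKO sham replicate 1, which goes against that label. The lowest fl/fl library, UUO+LY replicate 3, lay inside the range of those 8 tKO libraries. Pcmt1 did not reach an adjusted p under 0.05 between the genotypes in any single setting. Its log2 fold change of tKO over fl/fl was -0.29 after UUO+LY (edgeR adjusted p = 0.535), -0.61 after UUO (0.0818) and -0.48 after sham (0.182). Averaged over these settings it was -0.46 (edgeR adjusted p = 0.0248). Mitochondrially encoded genes took 33.7% to 69.5% of counts in tKO sham libraries, 30.8% to 35.5% in fl/fl sham libraries and 7.43% to 18.8% in the obstructed ones, with the highest share in tKO sham replicate 3. Fold changes and list counts that involve tKO sham were also computed without tKO sham replicates 1 and 3, which leaves 1 library in that group. Values from that fit are printed beside results whose call, sign or count they changed. Tubule markers were present in all libraries of this tissue, with the summed level of 9 proximal tubule markers at 993 to 3346 CPM in obstructed libraries and 6711 to 10119 CPM in sham ones.

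Promoter sequence is shown for Klf6 and Klf4, which rose after obstruction, and for Klf15, which fell, because all 3 share a motif, chosen for display after the matches were seen. RefSeq promoter sequences (build GRCm38.p6) were matched by symbol for 8 of the 10 members, all but Klf5 and Klf10. The stretch shown and searched runs from 250 to 31 bases before the annotated start, in the direction of transcription: Klf6 on chr13:5861239-5861458 (plus strand), Klf4 on chr4:55532506-55532725 (minus strand) and Klf15 on chr6:90462326-90462545 (plus strand). Capitals mark CACGTG, the E-box read by clock, Myc and related factors.
Klf6: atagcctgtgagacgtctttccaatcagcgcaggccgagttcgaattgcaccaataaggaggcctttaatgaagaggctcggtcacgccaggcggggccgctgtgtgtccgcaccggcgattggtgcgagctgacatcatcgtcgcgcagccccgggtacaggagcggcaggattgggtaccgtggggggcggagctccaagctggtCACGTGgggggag
Klf4: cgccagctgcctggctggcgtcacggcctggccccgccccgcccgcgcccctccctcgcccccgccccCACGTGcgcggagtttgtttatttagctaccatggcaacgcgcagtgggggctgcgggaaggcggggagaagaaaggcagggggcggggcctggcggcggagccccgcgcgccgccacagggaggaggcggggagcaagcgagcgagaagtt
Klf15: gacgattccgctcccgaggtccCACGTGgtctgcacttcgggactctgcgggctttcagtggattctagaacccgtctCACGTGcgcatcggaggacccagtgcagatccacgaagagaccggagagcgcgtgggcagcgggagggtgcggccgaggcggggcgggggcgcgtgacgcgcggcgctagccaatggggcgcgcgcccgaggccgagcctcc

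These stretches are GC-rich, with 63.2% G or C in Klf6, 74.5% in Klf4 and 70.9% in Klf15, in a range of 60% to 79.1% over the 8 members. CACGTG occurred in these 3 members of the 8 and in 5.03% of all 27025 promoters of the same length. Klf15 held 2 copies, while Klf6 and Klf4 held 1 each. The GC box GGGCGG, searched on both strands, was found in 7 of 8 members (all but Klf9) and in 28.5% of promoters. CACCC, the core letters of Klf binding, was found in Klf3, Klf7, Klf9 and Klf15 and in 47.2% of promoters, with 5 matches in Klf3. The cyclic AMP element TGACGTCA (1.16% of promoters), the serum response box (1.22%), TATAAA (10.3%) and the palindromic glucocorticoid receptor element (0.0037%) had no match in the 8 members. The AP-1 element TGANTCA (6.24%) matched in Klf9, and CCAAT (31.6%) matched in Klf6, Klf9, Klf13 and Klf15. These matches describe the letters in this window only, and E-box copies stood both in genes that rose and in the one that fell.

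The first comparison asks how obstruction of the ureter changes the family. After UUO, 7 members were higher and Klf15 was lower than after sham surgery in tKO kidneys, and 6 were higher and Klf15 lower in fl/fl kidneys (edgeR's quasi-likelihood test, adjusted p under 0.05 over all genes tested). Among all genes tested, 41.0% were called in tKO kidneys, 21.7% as higher and 19.4% as lower. In fl/fl kidneys 39.6% were called, 20.9% as higher and 18.7% as lower. The median log2 fold change of the 10 members was 0.70 in tKO and 0.76 in fl/fl kidneys, beside 0.02 over all genes tested in each. Each called member had groups that did not overlap, which was also true of 48.8% of all genes tested in tKO and 54.8% in fl/fl kidneys. In whole tissue, fewer cells of a type and less RNA per cell cannot be told apart.

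**Figure D1:**
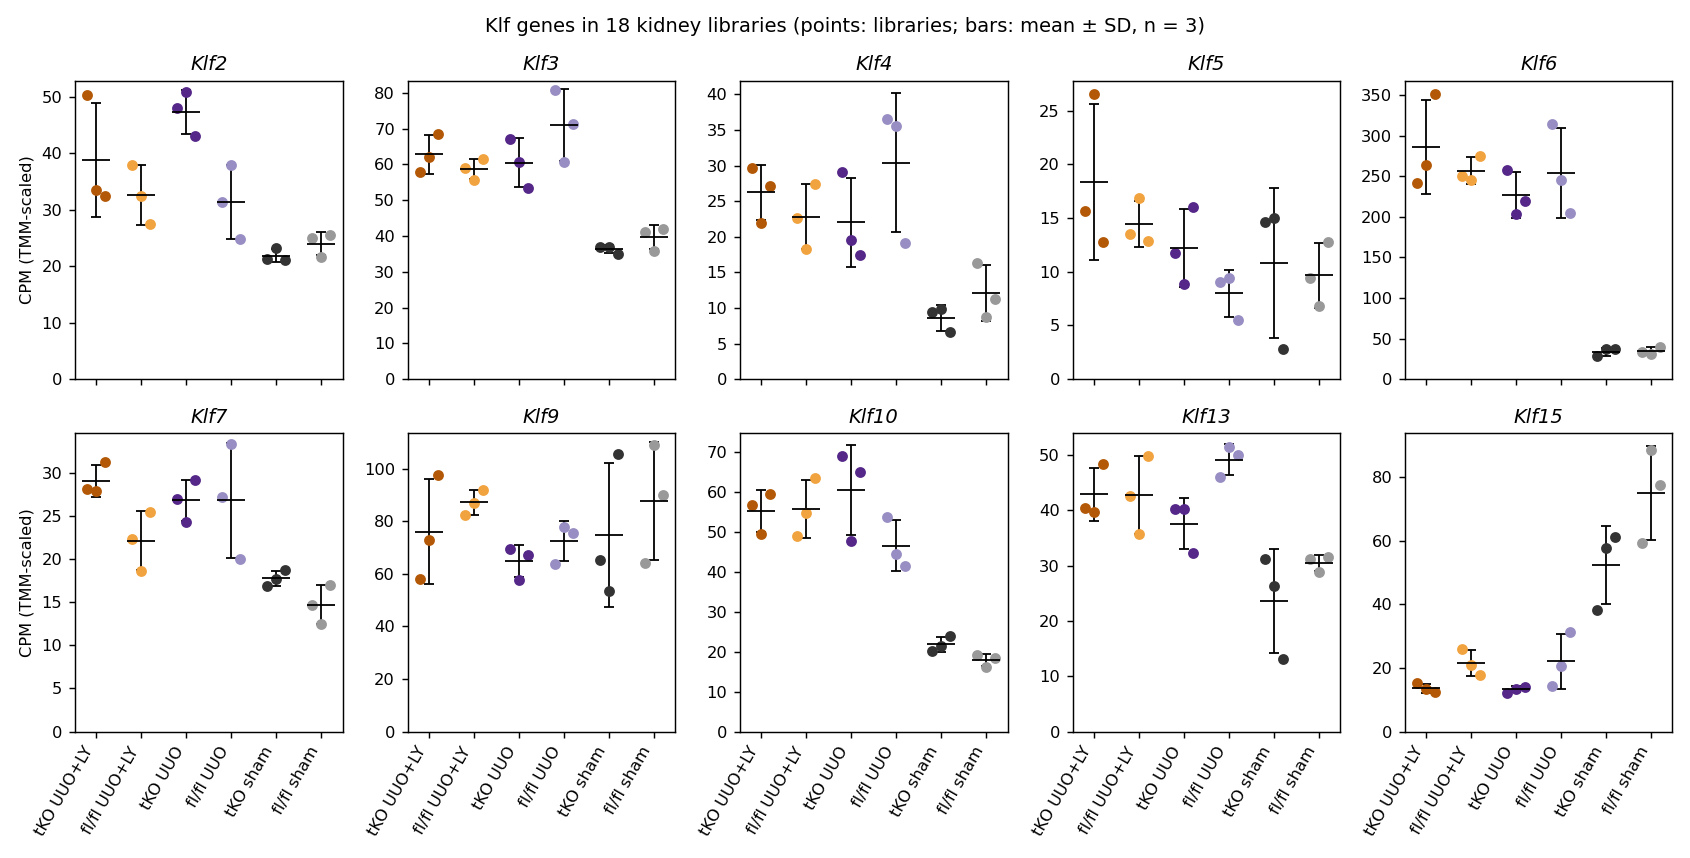
Level of each Klf gene (CPM after TMM scaling, vertical axes from 0) in the 18 libraries, by group; points are libraries and bars are mean ± SD of 3. Klf6 stands at 204 to 351 CPM in every obstructed library and at 28.1 to 39.6 CPM in every sham library, while Klf15 runs the other way.

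Klf6, the injury-responsive member, showed the largest change. It had 258, 204 and 219 CPM in tKO UUO kidneys, against 28.1, 36.7 and 36.8 CPM in tKO sham kidneys. It had 314, 245 and 204 CPM in fl/fl UUO kidneys, against 33.1, 30.5 and 39.6 CPM in fl/fl sham kidneys. The lowest UUO library of either genotype stood far above the highest sham library, and the tKO and fl/fl ranges overlapped in both settings. The log2 fold change of UUO over sham was 2.75 ± 0.19 (SE) in tKO kidneys (edgeR adjusted p = 1.06e-07) and 2.89 ± 0.19 in fl/fl kidneys (adjusted p = 6.69e-08).

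Klf10 and Klf4 formed the next step down. Klf10, also called TGF-β-inducible early gene and known as a repressor in the TGF-β response, had 69.0, 47.8 and 65.0 CPM in tKO UUO kidneys, against 20.2, 21.4 and 23.9 CPM in tKO sham kidneys. It had 53.8, 44.5 and 41.4 CPM in fl/fl UUO kidneys, against 19.2, 16.2 and 18.4 CPM in fl/fl sham kidneys. Every UUO library was thus above every sham library. Its log2 fold change was 1.48 ± 0.16 (SE) in tKO (edgeR adjusted p = 4.54e-06) and 1.38 ± 0.16 in fl/fl kidneys (adjusted p = 7.99e-06).

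Klf4, a factor of endothelium, epithelium and monocytes, had 29.1, 19.5 and 17.4 CPM in tKO UUO kidneys, against 9.38, 9.86 and 6.57 CPM in tKO sham kidneys. It had 36.6, 35.5 and 19.2 CPM in fl/fl UUO kidneys, against 16.3, 8.72 and 11.2 CPM in fl/fl sham kidneys. Groups did not overlap, although fl/fl UUO replicate 3 came close to fl/fl sham replicate 1. Its log2 fold change was 1.34 ± 0.30 (SE) in tKO (edgeR adjusted p = 0.00195) and 1.33 ± 0.29 in fl/fl kidneys (adjusted p = 0.00172). Without tKO sham replicates 1 and 3 the tKO value was 1.16, with an adjusted p of 0.069.

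Klf3, Klf7 and Klf13 rose by less. Klf3, a repressor that works through CtBP, lay at 53.5 to 67.1 CPM in tKO UUO and at 60.7 to 80.8 CPM in fl/fl UUO kidneys, above 35.0 to 37.0 CPM in tKO sham and 35.8 to 42.1 CPM in fl/fl sham kidneys. Its log2 fold change was 0.73 ± 0.13 (SE) in tKO (edgeR adjusted p = 2.63e-04) and 0.84 ± 0.13 in fl/fl kidneys (adjusted p = 7.99e-05). It varied little within groups, so that a change under 1 on the log2 scale passed the test.

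Klf7, best known from the nervous system, lay at 24.3 to 29.1 CPM in tKO UUO kidneys, against 16.9 to 18.7 CPM in tKO sham kidneys, a log2 fold change of 0.60 ± 0.18 (SE, edgeR adjusted p = 0.0143). In fl/fl kidneys it lay at 20 to 33.3 CPM after UUO, against 12.5 to 17.0 CPM after sham, a change of 0.87 ± 0.18 (adjusted p = 0.00116). The tKO call was lost without tKO sham replicates 1 and 3 (adjusted p = 0.112).

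Klf13, a factor known from T lymphocytes and heart, lay at 32.3 to 40.3 CPM in tKO UUO kidneys, against 31.3, 26.4 and 13.1 CPM in tKO sham kidneys. In fl/fl kidneys it lay at 46.1 to 51.5 CPM after UUO, against 28.8 to 31.6 CPM after sham. The low tKO sham library is replicate 3, the one with the highest mitochondrial share. On the log2 scale Klf13 changed by 0.66 ± 0.23 (SE) in tKO (edgeR adjusted p = 0.0288) and 0.69 ± 0.22 in fl/fl kidneys (adjusted p = 0.0226). Without tKO sham replicate 3 the tKO value was 0.38 (adjusted p = 0.0709), and without tKO sham replicates 1 and 3 it was 0.51 (adjusted p = 0.0728). The tKO call was lost in 5 of 14 alternatives and the fl/fl call in 3 of 13, which were leaving out fl/fl sham replicate 1 (0.70, adjusted p = 0.0515), fl/fl sham replicate 2 (0.65, adjusted p = 0.0717) or fl/fl UUO replicate 2 (0.66, adjusted p = 0.0622).

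Klf2, the shear-responsive factor of endothelium that also keeps T cells quiescent, had 48.0, 50.8 and 43.0 CPM in tKO UUO kidneys, against 21.3, 23.2 and 21.1 CPM in tKO sham kidneys. It had 31.3, 37.9 and 24.7 CPM in fl/fl UUO kidneys, against 24.9, 21.7 and 25.4 CPM in fl/fl sham kidneys. The tKO groups were far apart and the fl/fl groups overlapped through fl/fl UUO replicate 3. The log2 fold change was 1.11 ± 0.19 (SE) in tKO kidneys (edgeR adjusted p = 2.49e-04) and 0.38 ± 0.19 in fl/fl kidneys (adjusted p = 0.118). The fl/fl value was 0.53 without fl/fl UUO replicate 3, past the threshold (adjusted p = 0.0428), and 0.22 without fl/fl UUO replicate 2 (adjusted p = 0.423). The difference of these changes was 0.73 ± 0.27 (SE) and did not pass the test over all genes (edgeR adjusted p = 0.256), so Klf2 is not shown to respond differently in the genotypes.

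Klf15 was the one member that fell. Klf15 is a glucocorticoid-regulated activator of amino acid breakdown that is also needed by podocytes. It had 12.2, 13.5 and 14.1 CPM in tKO UUO kidneys, against 38.2, 57.6 and 61.1 CPM in tKO sham kidneys. It had 14.3, 20.6 and 31.3 CPM in fl/fl UUO kidneys, against 59.2, 88.3 and 77.6 CPM in fl/fl sham kidneys. All UUO libraries lay below all sham libraries, and the fl/fl UUO libraries were spread more widely than the tKO UUO ones. UUO over sham gave a log2 fold change of -1.98 ± 0.26 (SE) in tKO (edgeR adjusted p = 2.52e-05) and -1.77 ± 0.26 in fl/fl kidneys (adjusted p = 6.20e-05).

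Klf9 and Klf5 did not pass the test in either genotype. Klf9, a glucocorticoid-induced and clock-linked repressor, lay at 57.8 to 69.3 CPM in tKO UUO and at 63.8 to 77.8 CPM in fl/fl UUO kidneys, inside the 53.5 to 106 CPM of tKO sham and 64.2 to 109 CPM of fl/fl sham kidneys except for fl/fl UUO replicate 1. Its log2 fold change was -0.20 ± 0.24 (SE) in tKO (edgeR adjusted p = 0.535) and -0.28 ± 0.24 in fl/fl kidneys (adjusted p = 0.389). Klf5, a transcription factor of collecting duct and other epithelia, lay at 8.89 to 16.1 CPM in tKO UUO kidneys, against 14.7, 15.0 and 2.79 CPM in tKO sham kidneys. In fl/fl kidneys it lay at 5.46 to 9.45 CPM after UUO, against 6.80 to 12.8 CPM after sham. Its log2 fold change was 0.14 ± 0.45 (SE) in tKO (edgeR adjusted p = 0.831) and -0.27 ± 0.45 in fl/fl kidneys (adjusted p = 0.667). The low tKO sham value of Klf5 rests on 14 counts in replicate 3, where the summed collecting duct markers (988 CPM) and urothelial markers (57.5 CPM) were also the lowest of the tKO sham libraries. The sign changed with the scaling of the libraries for Klf9 in both genotypes and for Klf5 in fl/fl kidneys only. Without tKO sham replicates 1 and 3 the tKO value was 0.27 for Klf9 and -0.30 for Klf5.

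**Figure D2:**
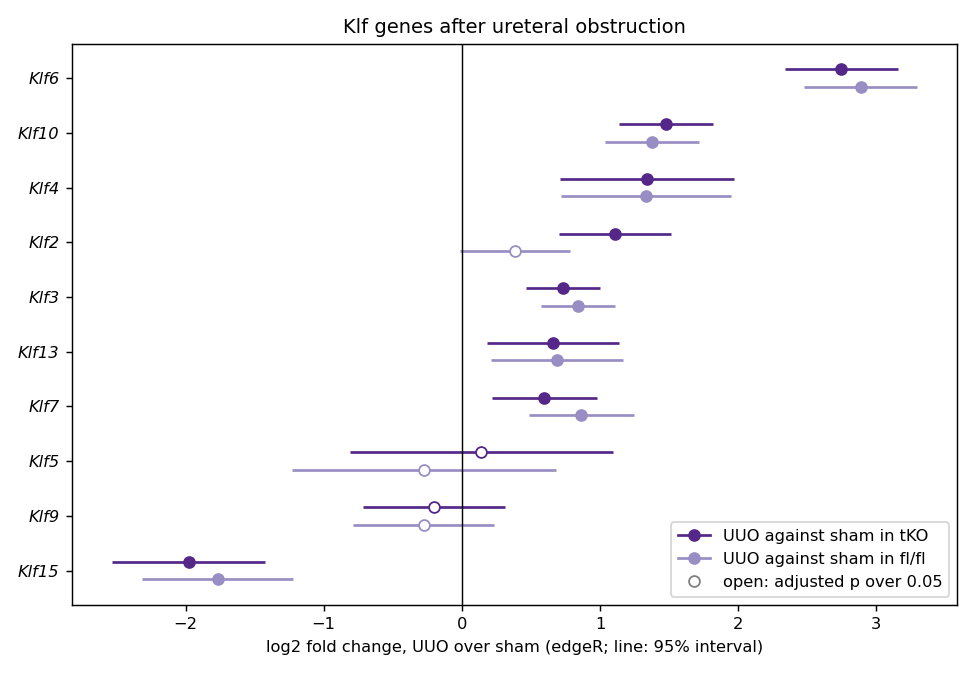
log2 fold change of UUO over sham (horizontal axis) for each Klf gene in tKO and fl/fl kidneys, with 95% intervals; filled points passed the test over all genes. Klf6 is farthest to the right at 2.75 and 2.89, and Klf15 is the one filled pair left of 0, at -1.98 and -1.77.

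Because members differ in length, their levels were compared with each other as CPM per kilobase, using the gene length implied by the authors' FPKM. In tKO sham kidneys Klf9 (13.3 ± 4.9 CPM per kilobase, SD) and Klf2 (11.8 ± 0.64) led without being separable from each other, followed by Klf15 (7.96 ± 1.9) and Klf6 (6.23 ± 0.92), which overlapped. In fl/fl sham kidneys Klf9 (15.7 ± 4.0), Klf2 (13 ± 1.1) and Klf15 (11.4 ± 2.2) overlapped in a chain, and Klf6 (6.33 ± 0.86) was the fourth, apart from its neighbours on both sides. The other 6 members averaged 1.67 to 3.63 CPM per kilobase in sham kidneys. Klf4, Klf5 and Klf7 were the last in tKO kidneys, and Klf7, which overlapped Klf5, was the last in fl/fl kidneys.

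In all 4 obstructed groups the order changed. Klf6 came first, apart from the next member, with group means of 41.8 to 52.6 CPM per kilobase. Klf2 was the second (16.9 to 25.6 CPM per kilobase) and Klf9 the third (11.6 to 15.5), overlapping each other in both fl/fl groups and separate in both tKO groups. Klf10 was the fourth, at 7.22 to 9.40 CPM per kilobase. It overlapped Klf9 above in tKO UUO and Klf4 below in fl/fl UUO kidneys, and was apart from both in the UUO+LY groups. Klf15 was last in both tKO groups, at 2.02 in UUO, where it overlapped Klf5, and at 2.07 CPM per kilobase in UUO+LY, where it was apart from Klf7. It was the eighth in both fl/fl groups. At 3.36 CPM per kilobase in fl/fl UUO it overlapped Klf3 above and Klf7 below, and at 3.29 in fl/fl UUO+LY it was apart from Klf3 above and overlapped Klf5 below.

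The members' shares of their summed CPM per kilobase do not depend on how libraries are scaled. Klf6 made up 38.1% ± 1.6 of the sum in tKO UUO and 42.4% ± 4.6 in fl/fl UUO kidneys, against 11.5% ± 1.2 in tKO sham and 10.2% ± 1.2 in fl/fl sham kidneys (SD, n = 3 each). Klf15 made up 1.86% ± 0.27 in tKO UUO and 3.20% ± 1.7 in fl/fl UUO kidneys, against 14.6% ± 2.7 in tKO sham and 18.4% ± 2.7 in fl/fl sham kidneys. Klf9 made up 10.6% ± 0.69 in tKO UUO and 12.0% ± 2.5 in fl/fl UUO kidneys, against 24.4% ± 7.4 in tKO sham and 25.1% ± 5.3 in fl/fl sham kidneys. The ranges of obstructed and sham libraries did not overlap for any of these 3 shares. The summed level itself was 94.4 to 134 CPM per kilobase in obstructed libraries and 50.5 to 65.5 in sham libraries. The log2 ratio of Klf6 to Klf15 per kilobase was 2.98 to 5.09 in the 12 obstructed libraries and -1.26 to -0.17 in the 6 sham libraries.

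**Figure D3:**
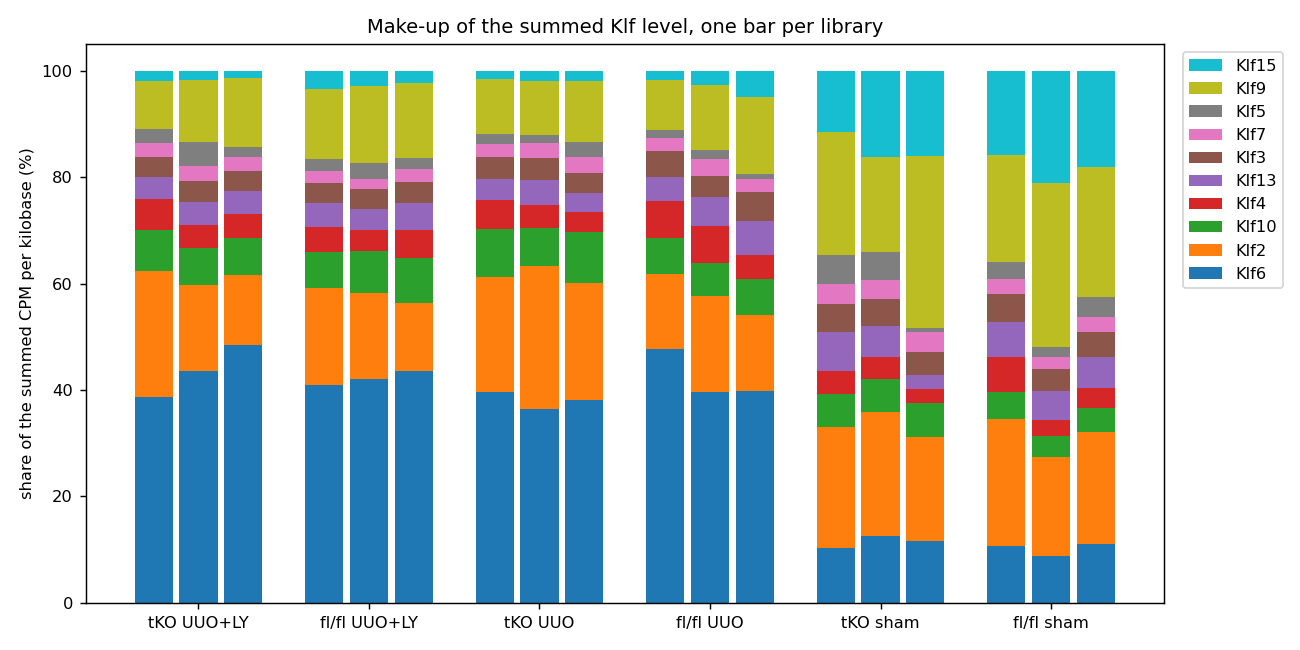
Share of each Klf gene in the summed CPM per kilobase of the 10 members (vertical axis, percent), one stacked bar per library, by group. Klf6, at the bottom, takes 36.5% to 48.4% of each obstructed bar and 8.85% to 12.5% of each sham bar, and Klf15 and Klf9, at the top, are wider in the sham bars.

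Cell type markers moved with the same contrast, and their part in the Klf changes was not tested. Of 9 proximal tubule markers, 8 fell in tKO (7 without tKO sham replicates 1 and 3) and 6 in fl/fl kidneys after UUO, and all 7 collecting duct markers fell in both. Of 10 macrophage markers 9 rose in each genotype. The summed endothelial markers were 776 to 1023 CPM in tKO UUO and 621 to 709 CPM in fl/fl UUO kidneys, against 551 to 673 CPM in tKO sham and 495 to 630 CPM in fl/fl sham kidneys. Klf15 can be read against the proximal tubule sum of 9 markers. It stood at 0.987% to 1.23% of that sum in tKO UUO and 0.484% to 1.07% in fl/fl UUO kidneys, against 0.569% to 0.858% in tKO sham and 0.836% to 0.873% in fl/fl sham kidneys. Relative to these markers it was therefore not lower in tKO UUO than in tKO sham libraries, and the fl/fl groups overlapped. Podocytes and fibroblasts are other sites known for Klf15. The summed podocyte markers were 289 to 350 CPM in tKO UUO and 237 to 314 CPM in fl/fl UUO kidneys. In sham kidneys they were 213 to 363 CPM in tKO and 175 to 237 CPM in fl/fl, so that the fl/fl groups met at their ends. Markers of fibroblasts, pericytes and smooth muscle summed to 1771 to 3124 CPM in tKO UUO and 989 to 1120 CPM in fl/fl UUO kidneys. In sham kidneys they summed to 462 to 745 CPM in tKO and 212 to 340 CPM in fl/fl, so this sum rose while Klf15 fell.

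**Figure D4:**
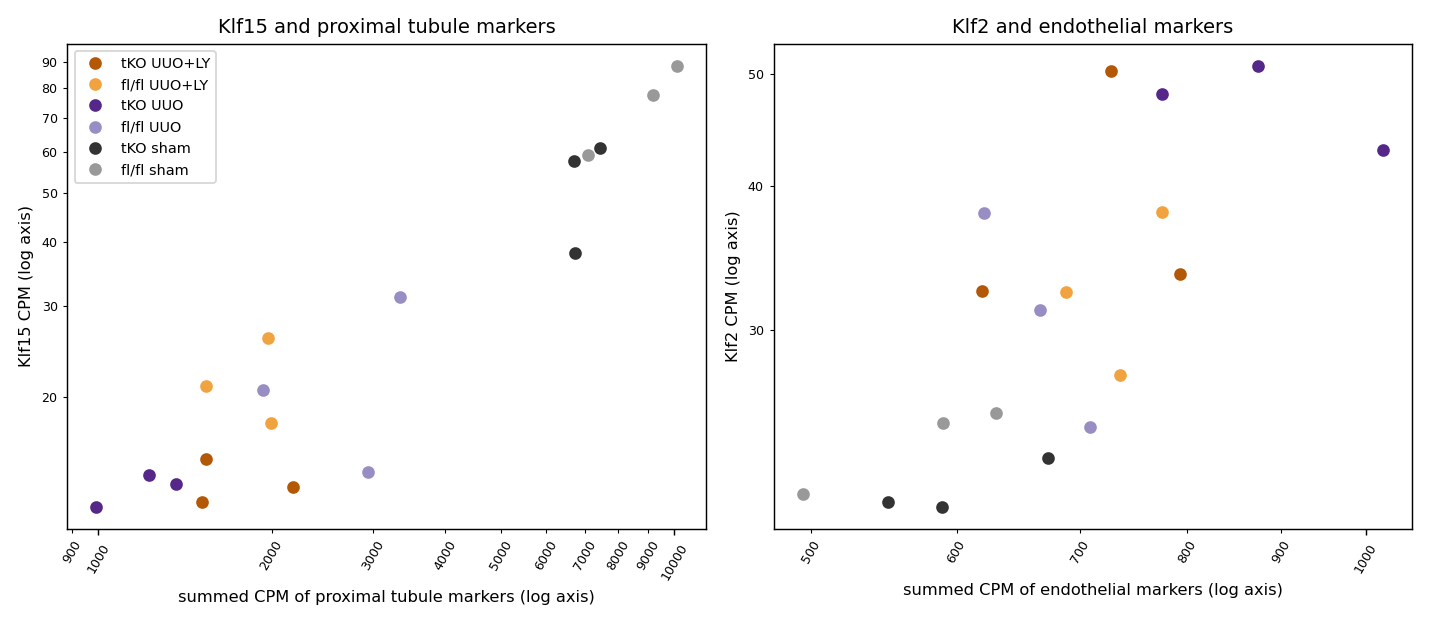
Left, Klf15 CPM against the summed CPM of proximal tubule markers; right, Klf2 CPM against the summed CPM of endothelial markers (all axes logarithmic); each point is 1 of 18 libraries, coloured by group. The sham libraries lie at the upper right for Klf15 (38.2 to 88.3 CPM), and the 3 tKO UUO libraries are the highest in endothelial sum of the UUO and sham groups and lie at 43.0 to 50.8 CPM of Klf2.

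Genes linked to the family were described from fixed lists. Of the remaining Klf genes, 5 of 7 were tested, with a median log2 fold change of 0.08 in tKO and 0.07 in fl/fl kidneys. Klf1, the erythroid factor, fell by 2.00 ± 0.41 (log2, SE) in tKO (edgeR adjusted p = 0.00113) and by 1.53 ± 0.39 in fl/fl kidneys (adjusted p = 0.00484), beside 5 of 5 erythroid markers that were lower in both genotypes. Without tKO sham replicates 1 and 3, which leaves 1 tKO sham library, Klf1 had -2.15 in tKO kidneys. The median was then -1.60 over the 5 erythroid markers and 0.24 over the 5 Klf genes. Klf11 (0.95, adjusted p = 0.0138) and Klf16 (0.53, adjusted p = 0.0374) rose in fl/fl kidneys, and had 0.56 (adjusted p = 0.123) and 0.39 (adjusted p = 0.120) in tKO kidneys, not called. Of 6 Sp genes tested out of 9, 2 rose in tKO kidneys, and 2 rose and 2 fell in fl/fl kidneys, with medians of 0.18 and 0.01. Sp1, the ubiquitous member, rose by 0.70 in tKO (adjusted p = 3.58e-04) and 0.54 in fl/fl kidneys (adjusted p = 0.00261).

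Among 8 corepressors and ubiquitin ligases of Klf proteins, 2 rose and 3 fell in tKO kidneys, and 2 rose in fl/fl kidneys. The histone deacetylases Hdac1 and Hdac2 rose in both. Fbxw7, the recognition subunit of a ligase that targets Klf proteins, fell in tKO kidneys (-1.63 ± 0.42, SE, edgeR adjusted p = 0.00585), and had -0.17 ± 0.41 in fl/fl kidneys, not called. The list's median was 0.15 in tKO and -0.04 in fl/fl kidneys. Without tKO sham replicates 1 and 3, where 30% of all genes tested were called, 0 rose and 1 fell in tKO kidneys, and Fbxw7 had -1.59 (adjusted p = 0.0545), Hdac1 0.54 (adjusted p = 0.0565) and Hdac2 0.31 (adjusted p = 0.251).

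Genes of the settings in which single members are known to act moved as follows. Of 14 immediate early genes, 9 rose in tKO kidneys and 11 in fl/fl kidneys, with medians of 1.13 and 2.77, and none fell. Egr2 rose by 4.22 in tKO (edgeR adjusted p = 6.00e-05) and by 5.99 in fl/fl kidneys (adjusted p = 9.05e-06). Of 10 early TGF-β responsive genes, 7 rose and 1 fell in tKO kidneys and 7 rose in fl/fl kidneys, with medians of 1.28 and 1.63. Pmepa1, a feedback inhibitor of TGF-β signalling, rose by 1.84 in tKO (adjusted p = 6.65e-07) and 1.89 in fl/fl kidneys (adjusted p = 4.95e-07). Without tKO sham replicates 1 and 3, 5 immediate early genes rose and 1, Nr4a1, fell in tKO kidneys (median 0.90), and 5 early TGF-β responsive genes rose and 1 fell (median 1.14).

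Of 9 tested genes known to depend on Klf15, 6 fell in tKO kidneys, and 6 fell and 1 rose in fl/fl kidneys, with medians of -0.96 and -1.35. Those that fell in both serve amino acid breakdown and peroxisomal fat oxidation, such as Prodh, proline dehydrogenase, at -1.84 ± 0.21 (log2, SE) in tKO (edgeR adjusted p = 6.15e-06) and -1.35 ± 0.20 in fl/fl kidneys (adjusted p = 8.45e-05). Ehhadh, a peroxisomal enzyme, had -2.67 ± 0.42 in tKO (adjusted p = 1.21e-04) and -2.22 ± 0.41 in fl/fl kidneys (adjusted p = 4.96e-04). The gene that rose in fl/fl kidneys was Nphs1, the slit diaphragm protein nephrin of podocytes (1.02, adjusted p = 0.00152). These enzymes are also expressed in proximal tubule, whose markers fell in the same libraries.

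Of 10 glucocorticoid receptor targets, 1 rose and 1 fell in tKO kidneys, and 2 rose and 1 fell in fl/fl kidneys, with medians of -0.27 and -0.13. Cebpd rose in both and Sgk1 fell in both. Fkbp5, a widely used readout of this receptor, had -0.29 (adjusted p = 0.217) in tKO and -0.38 (adjusted p = 0.112) in fl/fl kidneys. The median in tKO kidneys was 0.27 without tKO sham replicates 1 and 3, where 1 gene rose, 2 fell (Sgk1 and Dusp1) and Fkbp5 had 0.27 (adjusted p = 0.312). Of 8 endothelial genes known to be under Klf2 or Klf4 control, 5 rose and 1 fell in tKO kidneys, and 5 rose and 2 fell in fl/fl kidneys, with medians of 1.64 and 1.68. The list joins genes known to be induced with genes known to be repressed by these factors. Its counts and medians therefore mix both directions of control. Thrombomodulin (Thbd), which Klf2 is known to induce, rose by 1.5 in tKO (adjusted p = 8.96e-06) and 0.91 in fl/fl kidneys (adjusted p = 5.64e-04). Vcam1, which Klf2 is known to repress, rose by 4.81 in tKO (adjusted p = 4.58e-08) and 5.87 in fl/fl kidneys (adjusted p = 1.67e-08).

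The second comparison asks whether blocking the TGF-β receptor changes these genes in obstructed kidneys. No member was called in either genotype by edgeR's quasi-likelihood test or by DESeq2, where edgeR called 0.171% of all genes tested in tKO and 5.15% in fl/fl kidneys. At an unadjusted p under 0.05 there were 0 members in tKO and 1 in fl/fl kidneys, which was Klf3, with a log2 fold change of -0.27. The members' log2 fold changes of UUO+LY over UUO ran from -0.29 to 0.58 in tKO and from -0.42 to 0.85 in fl/fl kidneys, with medians of 0.15 and -0.01. Of 10 early TGF-β responsive genes, 0 were called in tKO kidneys, and 2 were higher and 0 lower in fl/fl kidneys. The medians of that list were -0.25 in tKO and -0.01 in fl/fl kidneys. Whether the inhibitor lowered TGF-β signalling in these kidneys was not tested.

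Klf6, the member farthest above sham, had 242, 265 and 351 CPM in tKO UUO+LY kidneys, against 258, 204 and 219 CPM in tKO UUO kidneys. It had 250, 246 and 276 CPM in fl/fl UUO+LY kidneys, against 314, 245 and 204 CPM in fl/fl UUO kidneys. The groups overlapped in both genotypes. The 95% interval of its change was -0.05 to 0.71 in tKO and -0.37 to 0.39 in fl/fl kidneys, so that a fall on the scale of the obstruction difference lies outside both intervals.

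Klf10, known for its response to TGF-β, lay at 49.5 to 59.5 CPM in tKO UUO+LY kidneys, against 47.8 to 69.0 CPM in tKO UUO kidneys. It lay at 48.9 to 63.5 CPM in fl/fl UUO+LY kidneys, against 41.4 to 53.8 CPM in fl/fl UUO kidneys. The 95% interval of its change was -0.46 to 0.20 in tKO and -0.07 to 0.59 in fl/fl kidneys. Klf15 lay at 12.4 to 15.1 CPM in tKO UUO+LY and 17.8 to 26.0 CPM in fl/fl UUO+LY kidneys, overlapping the UUO libraries of the same genotype, which lay at 12.2 to 14.1 and 14.3 to 31.3 CPM.

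Klf5 had the largest value with the inhibitor. It had 15.7, 26.6 and 12.8 CPM in tKO UUO+LY kidneys, against 11.8, 8.89 and 16.1 CPM in tKO UUO kidneys. It had 13.5, 16.9 and 12.9 CPM in fl/fl UUO+LY kidneys, against 9.02, 9.45 and 5.46 CPM in fl/fl UUO kidneys. The fl/fl groups did not overlap and the tKO groups did. The log2 fold change was 0.58 ± 0.44 (SE) in tKO (edgeR adjusted p = 0.533) and 0.85 ± 0.45 in fl/fl kidneys (adjusted p = 0.277). Without tKO UUO+LY replicate 2, the library with 26.6 CPM, the tKO value was 0.21 (adjusted p = 0.904). Klf5 and Klf9 were the 2 members whose fl/fl groups did not overlap, a separation that 31.8% of all genes tested showed. The summed urothelial markers were 133 to 261 CPM in tKO UUO+LY and 197 to 509 CPM in fl/fl UUO+LY kidneys. In UUO kidneys they were 60.7 to 190 CPM in tKO and 42.0 to 129 CPM in fl/fl. The summed collecting duct markers were 184 to 529 CPM in tKO UUO+LY and 262 to 336 CPM in fl/fl UUO+LY kidneys. In UUO kidneys they were 158 to 233 CPM in tKO and 196 to 277 CPM in fl/fl, overlapping in both genotypes. The 529 CPM belong to tKO UUO+LY replicate 2. The part of both marker sums in the Klf5 values was not tested.

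The third comparison asks how tKO kidneys differ from fl/fl kidneys. After UUO, 1 member was called, Klf2, beside 17.9% of all genes tested (8.26% as higher). Its 3 tKO UUO libraries (43.0 to 50.8 CPM) all lay above the 3 fl/fl UUO libraries (24.7 to 37.9 CPM), and its log2 fold change was 0.59 ± 0.19 (SE, edgeR adjusted p = 0.0375). This call was lost in 8 of 13 alternatives, with adjusted p from 0.0194 to 0.241 over all of them. These include leaving out any single tKO UUO library, fl/fl UUO replicate 1 or fl/fl UUO replicate 3, without which the value was 0.45 to 0.66. The summed endothelial markers were also higher in all tKO UUO libraries than in the fl/fl UUO ones, as were T cell markers, at 41.6 to 46.0 CPM in tKO UUO and 30.8 to 38.7 CPM in fl/fl UUO kidneys. The summed macrophage markers were 1243 to 2855 CPM in tKO UUO and 1019 to 1217 CPM in fl/fl UUO kidneys. Markers of fibroblasts, pericytes and smooth muscle summed to 1771 to 3124 CPM in tKO UUO and 989 to 1120 CPM in fl/fl UUO kidneys. Of single markers, 2 of 10 endothelial, 0 of 7 T cell, 4 of 10 macrophage and 2 of 9 fibroblast, pericyte and smooth muscle genes were called higher in tKO UUO kidneys and none lower, and their part in the Klf2 value was not tested. Relative to the endothelial sum, Klf2 was at 4.21% to 6.19% in tKO UUO and 3.49% to 6.10% in fl/fl UUO libraries, which overlapped.

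**Figure D5:**
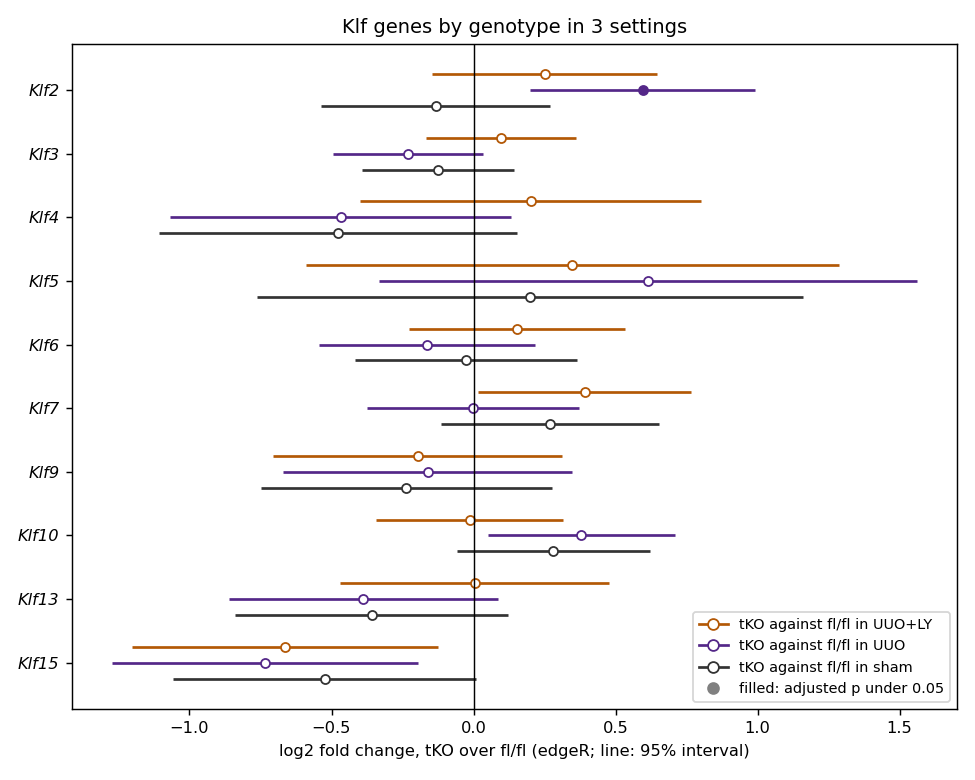
log2 fold change of tKO over fl/fl (horizontal axis) for each Klf gene after UUO+LY, UUO and sham surgery, with 95% intervals; the filled point passed the test over all genes. Klf15 lies at -0.66, -0.73 and -0.52, left of 0 in all 3 settings, and Klf2 after UUO, at 0.59, is the one filled point.

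No member was called between the genotypes after sham surgery or after UUO+LY, by edgeR or DESeq2, where edgeR called 12.3% and 2.98% of all genes tested. At an unadjusted p under 0.05 there were 0 members after sham, 3 after UUO (Klf2, Klf10 and Klf15) and 2 after UUO+LY (Klf7 and Klf15). After UUO the genotypes did not overlap for Klf2, Klf13 and Klf15, as for 42.4% of all genes tested. After UUO+LY they did not overlap for Klf7 and Klf15, as for 27.2% of all genes tested. After sham they did not overlap for Klf10. Klf5 had 0.61 ± 0.45 (SE) after UUO, with an adjusted p of 0.359. That value was 0.37 without tKO UUO replicate 3 (adjusted p = 0.677) and 0.41 without fl/fl UUO replicate 3 (adjusted p = 0.632).

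Klf15 lay lower in tKO than in fl/fl kidneys in each setting, without passing the test in any. It had 15.1, 13.3 and 12.4 CPM in tKO UUO+LY kidneys, against 26.0, 21.0 and 17.8 CPM in fl/fl UUO+LY kidneys. The obstructed groups of the genotypes did not overlap, with or without the inhibitor, and the sham groups overlapped through fl/fl sham replicate 1. The share of all genes tested with no overlap was 42.4% after UUO and 27.2% after UUO+LY. The log2 fold change of tKO over fl/fl was -0.66 ± 0.25 (SE) after UUO+LY (edgeR adjusted p = 0.162), -0.73 ± 0.25 after UUO (adjusted p = 0.0568) and -0.52 ± 0.25 after sham (adjusted p = 0.175). The UUO value passed the test with DESeq2 (-0.72, adjusted p = 0.0378) and without fl/fl UUO replicate 1 (-0.97, adjusted p = 0.0297). It was -0.40 without fl/fl UUO replicate 3, the highest fl/fl UUO library (adjusted p = 0.286). The sham value was -0.34 without tKO sham replicate 1 (adjusted p = 0.394) and -0.38 without tKO sham replicates 1 and 3 (adjusted p = 0.505).

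The mean of these 3 differences was tested after their values had been seen. It was -0.64 ± 0.15 (SE) for Klf15, the only member called (edgeR adjusted p = 0.00762), where 22.5% of all genes tested were called, 11.7% as lower. Over its 25 alternatives the value ran from -0.75 to -0.53 and the adjusted p from 8.03e-04 to 0.0214. The summed proximal tubule markers were 993 to 1367 CPM in tKO UUO and 1931 to 3346 CPM in fl/fl UUO kidneys, and 6711 to 7419 CPM in tKO sham and 7081 to 10119 CPM in fl/fl sham kidneys. After UUO+LY they overlapped, at 1514 to 2179 CPM in tKO and 1541 to 1996 CPM in fl/fl kidneys. There Klf15 was 0.611% to 0.984% of that sum in tKO and 0.890% to 1.36% in fl/fl libraries. After UUO it was 0.987% to 1.23% in tKO and 0.484% to 1.07% in fl/fl libraries. After sham it was 0.569% to 0.858% in tKO and 0.836% to 0.873% in fl/fl libraries. The genotypes' ranges of this percentage overlapped in each setting. The part of proximal tubule content in the Klf15 values was not tested.

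The linked gene lists were also read between the genotypes. Of the 9 tested genes known to depend on Klf15, 5 were lower and 1 was higher in tKO kidneys in the averaged difference, with a median of -0.35 beside 0.03 over all genes tested. After UUO+LY none of the 9 was called, after UUO 3 were lower and 1 higher, and after sham 1 was lower and 1 higher. Of 14 immediate early genes, 6 were higher and none lower in tKO sham than in fl/fl sham kidneys (median 1.51). Without tKO sham replicates 1 and 3, 7 were higher and 1, Jun, was lower (median 1.86), beside 12.4% of all genes tested. With the same libraries left out, the genes known to depend on Klf15 had a median of -0.28 after sham and of -0.34 in the averaged difference. In the sham comparison no member of the family was called, and Klf6 and Klf4 overlapped between the sham groups.

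Whether the genotypes respond differently was tested directly. No member was called for the difference in the response to obstruction, where edgeR called 0.0415% of all genes tested, or for the difference in the response to LY2109761, where 13.8% were called. DESeq2 called 0 members in both. At an unadjusted p under 0.05 there was 1 member for obstruction, Klf2, and 0 for LY2109761. Values ran from -0.27 to 0.73 for obstruction and from -0.39 to 0.67 for LY2109761, where Klf4 had the highest (0.67 ± 0.40, SE, edgeR adjusted p = 0.279). Klf4 had 29.6, 22.0 and 27.2 CPM in tKO UUO+LY kidneys and 22.6, 18.3 and 27.5 CPM in fl/fl UUO+LY kidneys, which overlapped each other and the UUO libraries of the same genotype.

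For the 7 members whose group means spanned at least 1 on the log2 CPM scale, the genes with the most similar pattern over the 6 groups were sought among 12104 genes with a mean of at least 5 CPM. Likeness was the root mean square difference of the 6 centred group means of log2 CPM. All 18 libraries were used, and the patterns were not recomputed without tKO sham replicates 1 and 3. The span of Klf13, 1.13, has tKO sham as its lowest group, where replicate 3 stood at 13.1 CPM. Klf5 was also low in that library, at 2.79 CPM. Nearest to Klf6 were Tifa (0.144), Dclk1 (0.152) and Msr1 (0.160). Nearest to Klf15 were Ces2c (0.103), Prdx5 (0.104) and Ndufb9 (0.108). Nearest to Klf10 were Dapp1 (0.0784), Ckap4 (0.0886) and Tnfrsf10b (0.0896), and nearest to Klf4 were Sec24d (0.0567), Tapbpl (0.0750) and Ostc (0.0966). Klf2 was closest to Rtp4 (0.0542), Dram1 (0.0741) and St3gal5 (0.0787), and Klf13 to Cnih4 (0.0363), Mapk1ip1l (0.0464) and Fbxl14 (0.0560). Nearest to Klf5 were Tor1b (0.0862), Dleu2 (0.163) and Slc17a5 (0.165).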

How the data were processed

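Counts per gene were computed and deposited by the authors for kidney libraries of the obstruction experiment, beside FPKM that the authors also deposited. Per the labels' protocols, total RNA was used with an mRNA library kit for Illumina sequencing. Tools listed in the submitters' processing notes are fastp, HISAT2 and StringTie, without versions, and the mouse build these notes name is GRCm38/mm10. How reads were counted, on which annotation and strand, is not given in the sources used here. Gene positions in the table equal those of GENCODE M21 on GRCm38 for 1445 of 51933 shared genes, so they are not printed, and promoters were matched by symbol. Gene lengths were taken from the ratio of counts to FPKM. The tables of HK-2 cells and of knockout kidneys list none of these genes and were not used here.

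The 18 libraries of 6 groups were fitted together with edgeR 4.0.16 (R 4.3.3, limma 3.58.1): filterByExpr, TMM, quasi-likelihood test, Benjamini-Hochberg adjustment over 19256 genes, threshold 0.05, 12 residual degrees of freedom. The SE is the log2 fold change divided by the square root of F. The biological coefficient of variation was 0.283. The procedure was tested on simulated data, drawn for all libraries from the mean fl/fl sham profile with changes set in a subset of genes. That test does not cover the differing mitochondrial shares of the real libraries. Alternatives were RLE factors, column totals, totals without mitochondrial genes, no filter, only the compared groups, DESeq2 1.42.0, the replicate block and leaving out libraries. The members and gene lists were chosen with earlier results of these data known. Named genes are all members, up to 4 genes with the smallest p of each list (Fkbp5 and Nphs1 were added after their values were seen), and the 3 nearest patterns. Replicate numbers are taken from the titles.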

Additional observations from a re-analysis of the deposited data

How the results depend on the processing

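Of 30 followed fold changes under 426 alternatives, 394 kept direction and side of the threshold. 18 lost the call, 5 gained it and 9 changed sign. Every sign change was of Klf5 or Klf9 in UUO against sham. With column totals, which moved the median of all genes by 0.74 in fl/fl and 1.04 in tKO, Klf5 was 0.45 and Klf9 0.47 in fl/fl, and Klf9 was 0.97 in tKO, past the threshold (adjusted p = 0.00275). With totals without mitochondrial genes (median shift 0.25 in fl/fl and 0.23 in tKO) Klf9 was 0.0515 in tKO. Relative to those shifts the signs stayed with the main values for Klf5 and Klf9 in fl/fl and for Klf9 in tKO. Without tKO sham replicates 1 and 3, chosen after seeing the data, Klf5 was -0.30 and Klf9 0.27 in tKO, and 5 members were called in tKO in place of 8, since Klf4, Klf7 and Klf13 lost the call. Leaving out 1 library at a time gave -0.28 to 0.42 for Klf5 and -0.39 to 0.13 for Klf9 in tKO.

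Klf2 in UUO against sham of fl/fl passed the test with column totals (1.12) and with totals without mitochondrial genes (0.64). Members called between tKO and fl/fl after UUO (1 in the fit reported) were 0 with column totals, without the filter on low counts and with only the compared groups, 2 with totals without mitochondrial genes and with DESeq2, and 0 to 1 leaving out 1 library. The 1 member called was not always Klf2. Without fl/fl UUO replicate 1 it was Klf15 (edgeR adjusted p = 0.0297). Without tKO UUO replicate 2 it was neither Klf2 (edgeR adjusted p = 0.116) nor Klf15 (0.123). For the averaged difference (1 reported) they were 4 with totals without mitochondrial genes, 2 with the replicate block and 1 to 2 leaving out 1 library. The cause was not tested. Apart from these 2 comparisons and from the 5 in place of 8 for UUO against sham in tKO given above, the count of members called stayed within 1.5 times under every alternative run.

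Same-numbered libraries had residual correlations from -0.14 to 0.14 over 19256 genes, so the numbers were not taken to pair them. With the replicate block, 8 members were called for UUO against sham in tKO, 7 in fl/fl, 1 between genotypes after UUO and 0 in the 6 remaining planned comparisons. With 3 libraries a group, the intervals printed for members not called limit what could be seen.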
